A study of Mus musculus with 4 samples.

Results

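The replication-dependent histone genes were examined in bone marrow B cells of wild type mice and of mice labelled as ADAR1 knockouts. They were taken as every protein-coding gene with a GENCODE M21 symbol starting with Hist1h, Hist2h, Hist3h or Hist4h, which gave 67 of the 55573 gene identifiers in the files. By class, 6 encode the linker histone H1, 18 encode H2A, 18 H2B, 12 H3 and 13 H4. The Hist1 cluster on chromosome 13 holds 54 of them, the Hist2 cluster on chromosome 3 holds 10, the Hist3 cluster on chromosome 11 holds 2, and Hist4h4 stands alone on chromosome 6.

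RNA was sequenced from C57BL/6 mice aged 8 to 12 weeks, from cells of the Fr.C+C′ sorting gate, which takes in rapidly dividing pro-B and pre-B cells. There were 2 wild type libraries (WT 1 and WT 2) and 2 libraries labelled as ADAR1 knockout (KO 1 and KO 2). ADAR1 is an enzyme that edits adenosines in double-stranded RNA. The labels do not give the knockout allele, a Cre driver or whether libraries came from separate mice, so p-values reflect how far these libraries vary among themselves, and that variation may be technical. Expression was deposited as FPKM, fragment counts scaled to exon length and library size, and levels below are on that scale. It allows genes of different length to be compared only as far as the exon length of the gene model matches the RNA measured.

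Histones package DNA into nucleosomes, each built on a core of H2A, H2B, H3 and H4, with H1 bound where DNA enters and leaves. Genes of the replication-dependent kind are transcribed in S phase, when newly made DNA needs histones. Their mRNAs usually end in a conserved stem-loop bound by the protein SLBP, in place of a poly(A) tail, and are destroyed when DNA synthesis stops. Many of these genes also have a poly(A) signal downstream, and polyadenylated forms have been described in cells that leave the cycle. A library made from poly(A) RNA therefore records only a part of these mRNAs. Among the sources used here, none names poly(A) selection or ribosomal RNA depletion.

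The stem-loop is shown for members that carry much of the signal or a rarer form of the loop. It was searched in the sense strand of GENCODE M21 transcripts as 16 bases that start with GG, end with CC, pair over 6 bases and enclose a loop of 4 bases starting with TT. Capitals mark the stem-loop, with 5 flanking bases on each side in lower case, written 5′ to 3′.
Hist1h1c: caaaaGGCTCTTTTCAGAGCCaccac
Hist3h2ba: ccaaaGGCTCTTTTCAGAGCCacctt
Hist1h2bg: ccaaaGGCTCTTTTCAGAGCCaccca
Hist1h3c: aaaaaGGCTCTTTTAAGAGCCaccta
Hist1h4i: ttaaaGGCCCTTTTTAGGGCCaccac
Hist1h4b: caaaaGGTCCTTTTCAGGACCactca
In GRCm38 the capitals lie at chr13:23739512-23739527 on the plus strand for Hist1h1c, chr11:58949349-58949364 on the plus strand for Hist3h2ba and chr13:23571843-23571858 on the plus strand for Hist1h2bg. Those of Hist1h3c (chr13:23745047-23745062) and Hist1h4i (chr13:22040966-22040981) are on the minus strand, and that of Hist1h4b (chr13:23757366-23757381) is on the plus strand. All 6 lie in the 3′ UTR.

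Such a stem-loop was found in 44 of 67 members, and in 44 of the 52 whose model holds at least 30 bases after the stop codon. The same search matched 480 of 21836 other protein-coding genes (2.198%). The form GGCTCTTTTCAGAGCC occurred in 26 members. The stem differed by class. The H4 members with a stem-loop numbered 11, of which 9 had a stem starting GGCCCT and 2 a stem starting GGTCCT, whereas all 33 matches in H1, H2A, H2B and H3 members started GGCTCT. Members of a class share much of their sequence, so these are not independent matches.

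The promoters of these genes also have recurring short motifs. In RefSeq's promoter table for GRCm38.p6, which runs from 250 bases before to 50 bases after a start, 61 of 67 members were matched. The letters CCAAT, searched on both strands, were present in 52 of them (85.25%), against 37.36% of all 32544 promoters in the table. All 49 matched promoters of H1, H2A, H2B and H3 genes held CCAAT, and 3 of 12 H4 promoters did. TATAAA, also on both strands, was present in 34 member promoters (55.74%) and in 13.57% of all promoters. The octamer ATTTGCAT, the letters read by the Oct transcription factors, was found in 13 member promoters (21.31%), all of them of H2A (7 of 18) or H2B (6 of 16) genes, and in 1.751% of all promoters on both strands.

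H2A and H2B genes often lie head to head and share the stretch between their starts, and there were 12 such pairs with starts 176 to 306 bases apart. The stretch between Hist1h2ae, read to the left, and Hist1h2bg, read to the right, is shown because these partners stood at very different levels. It covers chr13:23571221-23571395 of GRCm38 and is written on the plus strand, with capitals for CCAAT or its reverse complement, ATTTGCAT and TATAAA.
Hist1h2ae to Hist1h2bg: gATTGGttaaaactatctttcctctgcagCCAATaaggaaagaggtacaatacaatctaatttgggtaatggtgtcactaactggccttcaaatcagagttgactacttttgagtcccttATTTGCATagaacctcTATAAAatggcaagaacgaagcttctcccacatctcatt
The octamer and TATAAA stand towards the Hist1h2bg end of the stretch. A match of letters is a description and not a measured binding site. Because partners share such a stretch, the same match can count for both promoters, so the promoter counts above are not independent.

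Before the levels are given, 3 facts about the libraries bear on them. Estimated depth was alike, from 15128696 to 16391401 fragments assigned to genes. Adar, the gene that encodes ADAR1, had 15.04 FPKM in WT 1 and 14.62 in WT 2, and the libraries labelled KO 1 and KO 2 had 15.19 and 16.79 (log2 change 0.10 ± 0.14 SE, adjusted p = 0.721, limma). Both libraries labelled KO were thus slightly above both WT libraries, a difference that did not pass the test, and the gene-level value shows no loss of Adar RNA in them. It does not show whether an exon is missing, and every direction below is that of the labels. The B-lineage markers were all measured (16 of 16 tested, none listed at 0), with a summed level of 2597 and 2638 FPKM in the WT libraries, 2175 in KO 1 and 1383 in KO 2. The neutrophil markers, also 16 of 16 tested with none at 0, summed to 27781 and 25962 FPKM in WT, 36472 in KO 1 and 74288 in KO 2. KO 2 therefore stood apart, and KO 1 and KO 2 differed more across all genes (SD of the log2 difference 0.487) than WT 1 and WT 2 did (0.322). In every library, WT included, the neutrophil sum was above the B-lineage sum, so levels below may not be those of B-lineage cells alone.

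Replication-dependent histone genes were weakly represented in all 4 libraries. Of 67 members, 9 were listed at 0 throughout, a further 15 never reached 1 FPKM, and 7 had a mean of at least 5 FPKM over the 4 libraries. All members together summed to 173 FPKM in WT 1, 178 in WT 2, 240.0 in KO 1 and 141 in KO 2. For comparison, 11 replication-independent histone variant genes summed to 1360, 1381, 1322 and 1015 FPKM, so that the members made up 11.3%, 11.4%, 15.4% and 12.2% of this combined histone level. The plot of single genes shows that most members lay within a few FPKM of 0 and that a handful stood well above.

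**Figure D1:**
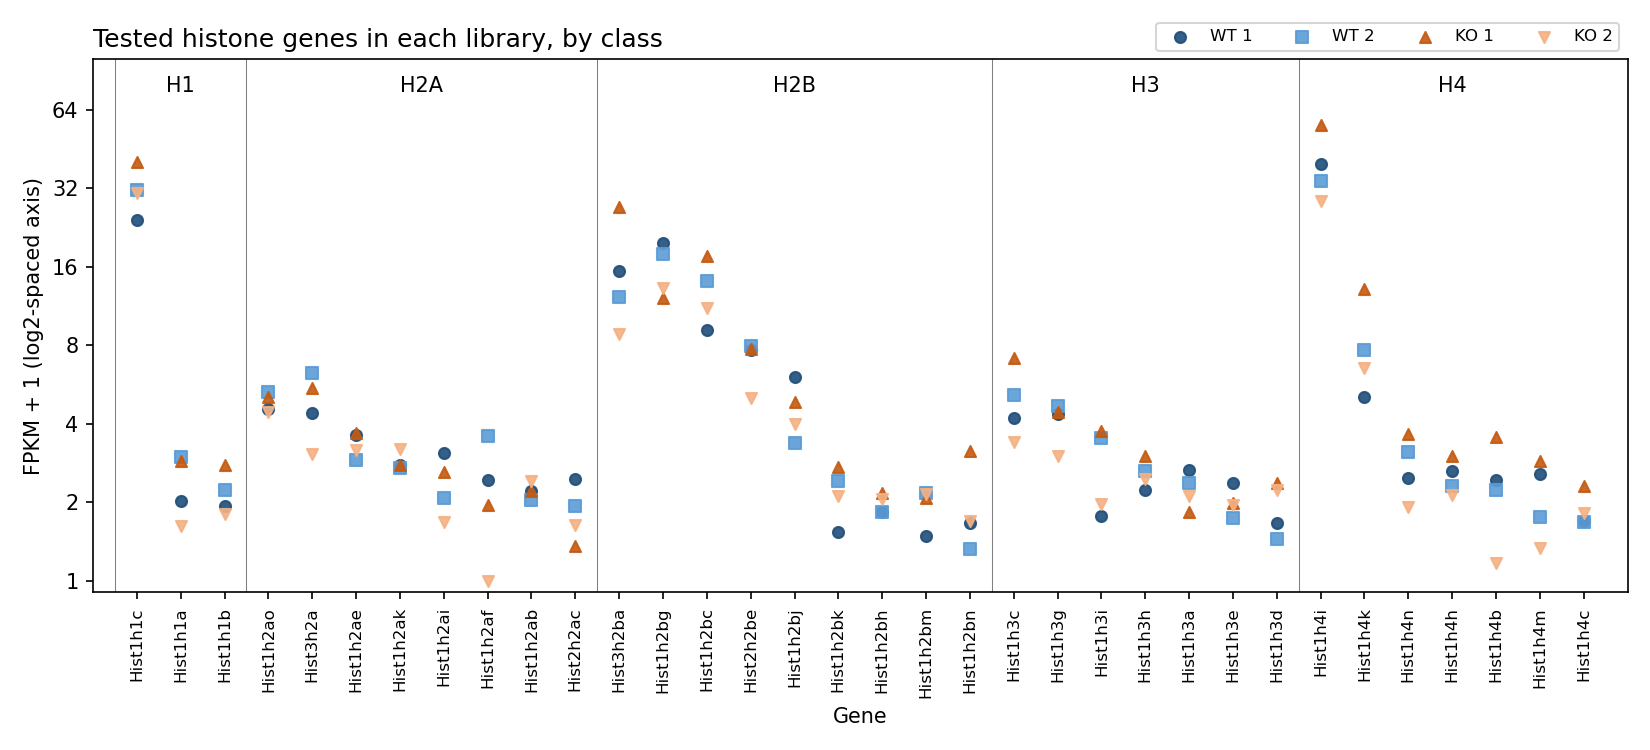
FPKM + 1 on a log2-spaced axis for the 34 histone genes that passed the filter on low values, in WT 1, WT 2, KO 1 and KO 2, grouped by class and ordered by mean level. Hist1h4i and Hist1h1c are the highest, and the upward triangle of KO 1 is the highest point in all 7 tested H4 genes.

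The signal was concentrated in few genes. The 6 most abundant members, Hist1h4i, Hist1h1c, Hist3h2ba, Hist1h2bg, Hist1h2bc and Hist1h4k, held 64.4% of the summed FPKM of all 67. Hist1h4i, an H4 gene, had a mean of 38.6 FPKM and Hist1h1c, an H1 gene, 30.7 FPKM. The order of these top genes depended on the library, since Hist1h4i was above Hist1h1c in WT 1, WT 2 and KO 1 and below it in KO 2. Hist3h2ba, Hist1h2bg and Hist1h2bc, all H2B genes, had means of 14.9, 14.7 and 11.96 FPKM with overlapping ranges.

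The level was spread unevenly over genes whose models end in different ways. The longest models of 21 members end at most 100 bases past the stem-loop, and these held 14.5% of the summed FPKM. Models of 22 members run further past it, and these held 62.5%. That share too rests on few genes, since 4 of the 22 and 0 of the 21 had a mean of at least 5 FPKM. The median level was 0.86 FPKM over the 22 and 0.965 FPKM over the 21. The letters AATAAA or ATTAAA, the usual poly(A) signals, were present in the last 50 bases of the model in 17 of 67 members (25.4%), against 72.5% of 21751 other protein-coding genes. Those 17 members held 55.4% of the summed FPKM. The share rests on few genes, because the median level was 0.73 FPKM over the members with a signal and 0.94 FPKM over the 50 without.

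**Figure D2:**
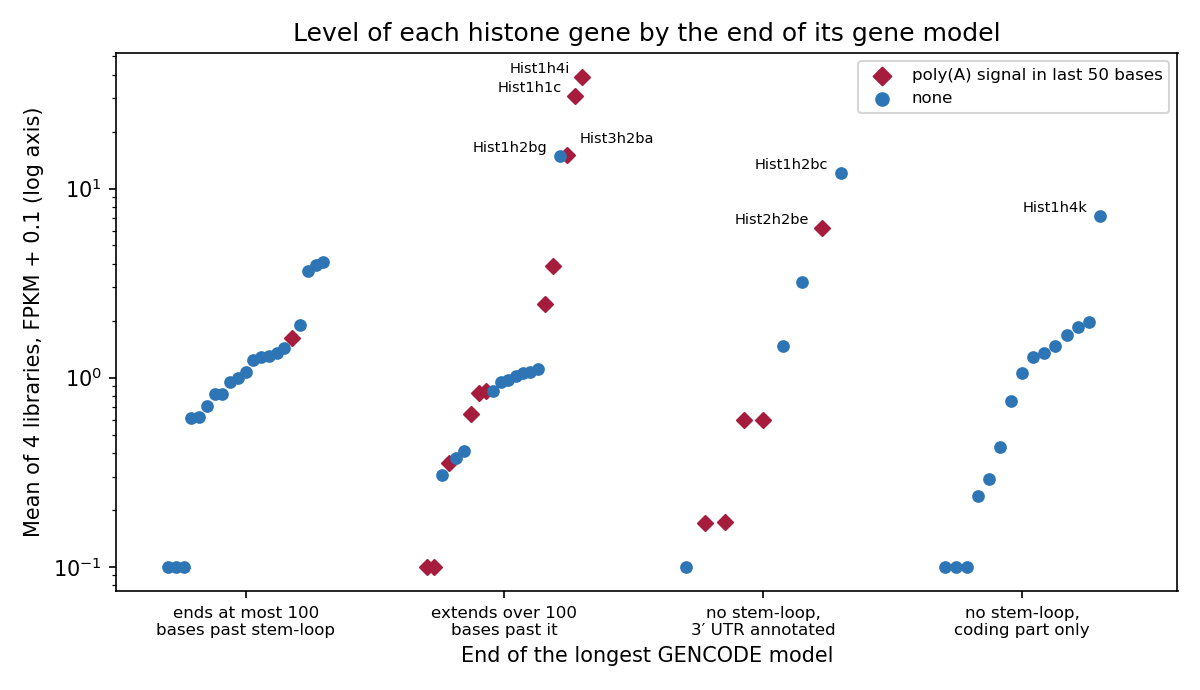
Mean FPKM over the 4 libraries plus 0.1, on a log axis, for each of 67 histone genes, by how the longest GENCODE M21 model ends (horizontal spread only separates points). Diamonds mark models with AATAAA or ATTAAA in the last 50 bases. The highest diamonds are Hist1h4i, Hist1h1c, Hist3h2ba and Hist2h2be.

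A set of RNAs that normally lack a poly(A) tail was read as a reference, chosen after values were seen. These 9 RNAs, among them Rn7sk, Rmrp and Rpph1, had no value above 4.55 FPKM. They summed to 6.23 and 6.39 FPKM in WT, 8.90 in KO 1 and 5.55 in KO 2, with the order resting on Rn7sk. Without Rn7sk the sums were 3.17 and 4.92 FPKM in WT, 5.47 in KO 1 and 4.35 in KO 2, so KO 1 was still highest but KO 2 was not the lowest. The part of library preparation in the histone levels was not tested.

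No member passed the test between the labelled groups. The test was limma on log2(FPKM + 1), KO minus WT, over the 13281 genes whose WT or KO mean reached 1 FPKM, with Benjamini-Hochberg adjustment and a threshold of 0.05. Of the 67 members, 34 could be tested, 24 of them through both groups, 4 through WT alone and 6 through KO alone. Among these, 0 were called lower, where 0.203% of all genes tested were called, and 0 were called higher, where 0% of all genes were called. Voom of limma on estimated fragments also called 0 members. At an unadjusted p under 0.05, 2 of 34 members were lower (Hist1h2bg and Hist1h2af) and 1 was higher (Hist1h3d), where 6.02% and 6.45% of all genes tested were. Hist1h2af passed the filter through WT alone and Hist1h3d through KO alone, so the filter admitted each by the group where it is high. For a single value, 2 libraries against 2 allow no exact permutation p under 0.33.

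The absence of calls came with wide intervals. The smallest adjusted p among members was 0.337, and the 95% interval of Hist1h4i, from -0.73 to 0.99 on the log2 scale, does not exclude a change of some size either way. In 20 of the 34 tested members the mean was under 20 estimated fragments per library, which limits the precision for them. The median log2 change of tested members was 0.08 with 19 above and 15 below 0, and over all genes tested it was -0.09.

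The 2 KO libraries lay on opposite sides of the wild type mean. The median difference of tested members from the WT mean was 0.27 (log2) for KO 1 and -0.21 for KO 2, against -0.01 and -0.17 over all genes. KO 1 exceeded KO 2 in 28 of 34 members, where 63.1% of all genes did so. KO 1 was the highest of the 4 libraries for 19 of 34 members, against 22.7% of all genes, and KO 2 was the lowest for 15, against 51.4% of all genes. The 19 include Hist1h2bh, Hist1h2bk, Hist1h2bn, Hist1h3d and Hist1h4c, which passed the filter through KO alone. The 15 include Hist1h2af, which passed through WT alone. The filter thus favoured these orders. Both KO libraries lay above both WT libraries for 4 members (Hist1h2bh, Hist1h2bn, Hist1h3d and Hist1h4c), against 19.7% of all genes, and below both for 4 (Hist1h2af, Hist1h2bg, Hist1h3a and Hist2h2ac), against 31.7%. The 4 above both all passed the filter through KO alone, and Hist1h2af, Hist1h3a and Hist2h2ac through WT alone, so their direction follows from the filter. Hist1h2bg passed through both groups. Without KO 1 the median log2 change was -0.21 with 10 of 33 members above 0, and without KO 2 it was 0.28 with 31 of 38 above 0. The filter was applied anew in each of these runs. Some members therefore entered only through the KO library kept, where they are high, such as Hist1h2ad, Hist1h2bb and Hist2h4 without KO 2. The direction of the group therefore depended on which KO library was kept.

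**Figure D3:**
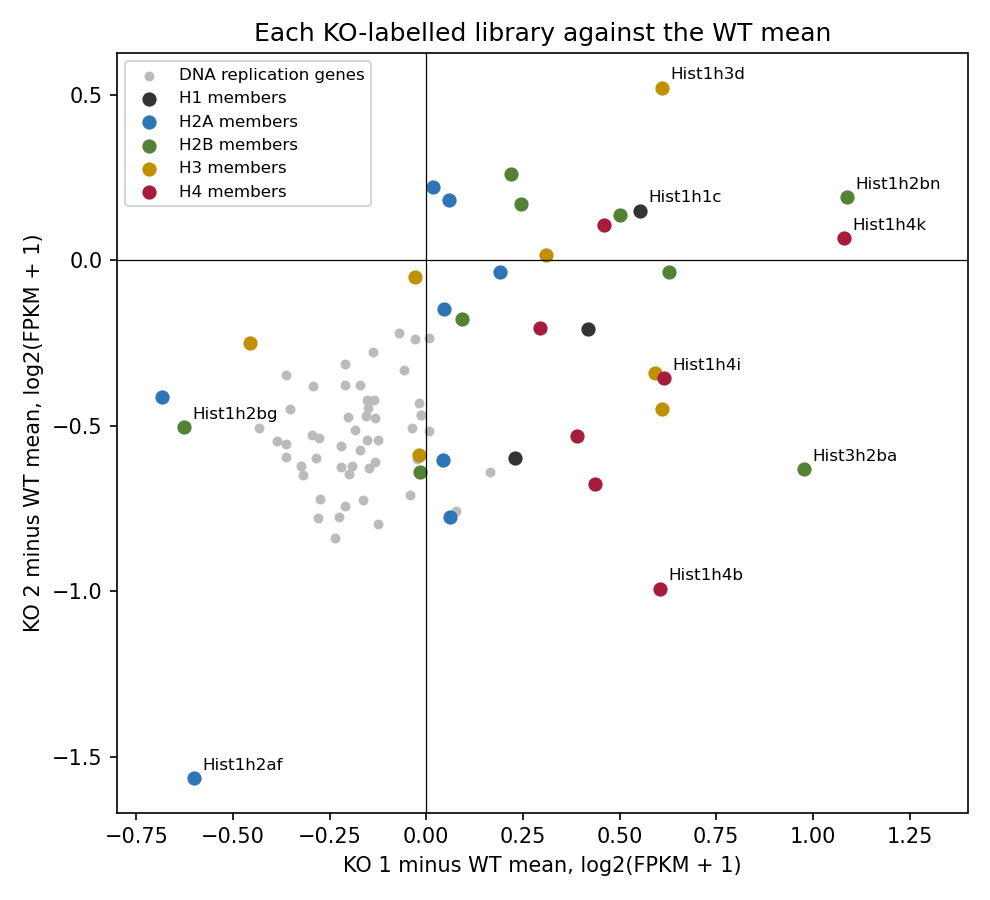
Difference of KO 1 (horizontal) and of KO 2 (vertical) from the WT mean on the log2(FPKM + 1) scale, for 34 tested histone genes by class and for 52 DNA replication genes in grey. Members spread to the right and down, while the grey points gather at the lower left. Of the 34 members, 16 were above 0 in KO 1 and below 0 in KO 2, where 22.8% of all genes tested were.

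The summed level gave the same picture by fragments. All members together had an estimated 2519 fragments in WT 1 (95% Poisson interval 2422 to 2619), 2858 in WT 2 (2754 to 2965), 3546 in KO 1 (3430 to 3665) and 2116 in KO 2 (2027 to 2208). These intervals cover counting error only, and none overlap, so the 2 WT libraries also differed by more than counting error. The log2 ratio of summed FPKM, KO over WT, was 0.07, made of 0.45 in KO 1 and -0.32 in KO 2, with an exact two-sided permutation p of 1.

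H4 genes showed the widest split between the KO libraries. Their sum was 54.8 and 47.9 FPKM in WT, 81.8 in KO 1 and 38.3 in KO 2. KO 1 was highest in 7 of 7 tested H4 genes, against 22.7% of all genes tested, though Hist1h4c passed the filter through KO alone. The untested H4 genes, at most 1.29 FPKM, did not share this order. Hist2h4 was highest in KO 1, but Hist1h4a, Hist1h4d, Hist1h4f, Hist1h4j and Hist4h4 were highest in WT 1. Hist1h4i (chr13:22040636-22041362, minus strand) stood at 38.47 and 33.10 FPKM in WT, 55.14 in KO 1 and 27.65 in KO 2. Its KO values bracket the WT values, and the log2 change was 0.13 ± 0.34 (SE; adjusted p = 0.858, limma). Hist1h4k stood at 4.06 and 6.64 FPKM in WT and 12.14 and 5.51 in KO, with KO 1 alone above the WT range. Hist1h4n stood at 1.47 and 2.12 FPKM in WT, 2.64 in KO 1 and 0.92 in KO 2, the same arrangement as Hist1h4i.

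H2B genes had the highest sum of the 5 classes in WT 1, WT 2 and KO 2, and H4 genes in KO 1. H2B genes summed to 58.7 and 56.9 FPKM in WT, 74.5 in KO 1 and 43.6 in KO 2. Hist3h2ba, the H2B gene of the Hist3 cluster (chr11:58948920-58949533, plus strand), stood at 14.43 and 11.21 FPKM in WT, 26.01 in KO 1 and 7.86 in KO 2. These KO libraries differed more than 3-fold, the widest gap among the 6 abundant members, and no 50 bases of this gene are shared with another member. Hist1h2bc stood at 8.16 and 13.07 FPKM in WT and at 16.55 and 10.07 in KO. KO 2 lay inside the WT range here.

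Hist1h2bg was the abundant exception (chr13:23571396-23572013, plus strand). It stood at 18.64 and 16.85 FPKM in WT and at 11.13 and 12.20 in KO, means of 17.7 ± 1.27 and 11.7 ± 0.757 (SD, n = 2 each). Both KO libraries lay below both WT libraries and close to each other, unlike the other 5 most abundant members. The log2 change was -0.57 ± 0.14 (SE; 95% interval -0.93 to -0.20), which did not pass the threshold (adjusted p = 0.337, limma). Of its 50-base windows, 49.7% also occur in other H2B members, and no source used here says how the authors assigned such fragments. Hist1h2bn, a low H2B gene, stood at 0.66 and 0.32 FPKM in WT and 2.15 and 0.69 in KO (adjusted p = 0.487, limma), from 2 to 13 estimated fragments per library.

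The summed FPKM of H2A genes in KO 1 lay slightly below both WT libraries, where that of the other 4 classes lay above them. H2A genes summed to 20.8 and 22.6 FPKM in WT, 20.2 in KO 1 and 15.95 in KO 2. By estimated fragments they had 272 in WT 1, 359 in WT 2, 307 in KO 1 and 200 in KO 2, so KO 1 lay inside the WT range on that count. KO 1 was highest in 1 of 8 tested H2A genes. Hist1h2ao stood at 3.56 and 4.31 FPKM in WT and 4.08 and 3.44 in KO, all within a narrow range, and its log2 change of -0.05 becomes positive under quantile normalization (0.03) or median centring (0.02). Hist3h2a stood at 3.39 and 5.25 FPKM in WT and 4.47 and 2.06 in KO. Its model overlaps Trim17 on the same strand and another gene on the opposite strand, so its fragments may be shared with them.

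Among the tested H2A genes, 2 stood below both WT libraries in both KO libraries. Hist1h2af stood at 1.43 and 2.60 FPKM in WT, 0.95 in KO 1 and was listed at 0 in KO 2, a log2 change of -1.08 ± 0.40 (SE; adjusted p = 0.389, limma). It rests on 9, 17, 6 and 0 estimated fragments, and a count of 0 in KO 2 allows up to 0.497 FPKM (3 fragments, counting error only). Hist2h2ac stood at 1.46 and 0.94 FPKM in WT and 0.36 and 0.64 in KO, from 3 to 12 fragments, with an adjusted p of 0.440 (limma). Hist1h2af shares 79.7% of its 50-base windows with other members.

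H3 genes were the lowest core class, with sums of 13.1 and 15.7 FPKM in WT, 19.3 in KO 1 and 11.1 in KO 2. Hist1h3c, the most abundant, stood at 3.21 and 4.16 FPKM in WT, 6.11 in KO 1 and 2.41 in KO 2. Hist1h3g stood at 3.34 and 3.68 FPKM in WT and 3.45 and 2.0 in KO. These H3 genes differed in KO 1, which was high for Hist1h3c and inside the WT range for Hist1h3g. Hist1h3i stood at 0.77 and 2.52 FPKM in WT and 2.76 and 0.97 in KO, so the WT libraries themselves were far apart. Hist1h3d stood at 0.66 and 0.44 FPKM in WT and 1.36 and 1.22 in KO, higher in both KO libraries but not past the threshold (log2 change 0.57 ± 0.22 SE, adjusted p = 0.395, limma). Hist1h3a had the opposite order, at 1.66 and 1.37 FPKM in WT and 0.83 and 1.11 in KO (adjusted p = 0.498, limma).

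The H1 class consisted almost only of Hist1h1c. This gene (chr13:23738808-23740367, plus strand), which encodes the H1.2 linker histone, held 89.5% and 88.0% of the summed H1 level in WT and 89.0% and 92.8% in KO. It stood at 23.12 and 30.50 FPKM in WT and at 39.42 and 29.59 in KO, so KO 2 lay inside the WT range and KO 1 above it. The log2 change was 0.35 ± 0.22 (SE; adjusted p = 0.510, limma), and the sign stayed positive without either KO library in turn. Hist1h1a had 1.02 and 1.97 FPKM in WT with 1.87 and 0.62 in KO, and Hist1h1b had 0.94 and 1.23 FPKM in WT with 1.78 and 0.80 in KO. These 2 genes were lowest in KO 2. Hist1h1e (0.62, 0.73, 0.98 and 0.65 FPKM) and Hist1h1d (0.14, 0.22, 0.22 and 0.24 FPKM) did not pass the filter. The length of the model matters here. Hist1h1d had 16 to 27 estimated fragments per library over 7425 bases, and Hist1h1b had 9 to 21 over 743 bases. Hist1h1t, the testis H1 gene, was listed at 0 in every library, and Hist4h4 ranged from 0.16 to 0.42 FPKM.

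**Figure D4:**
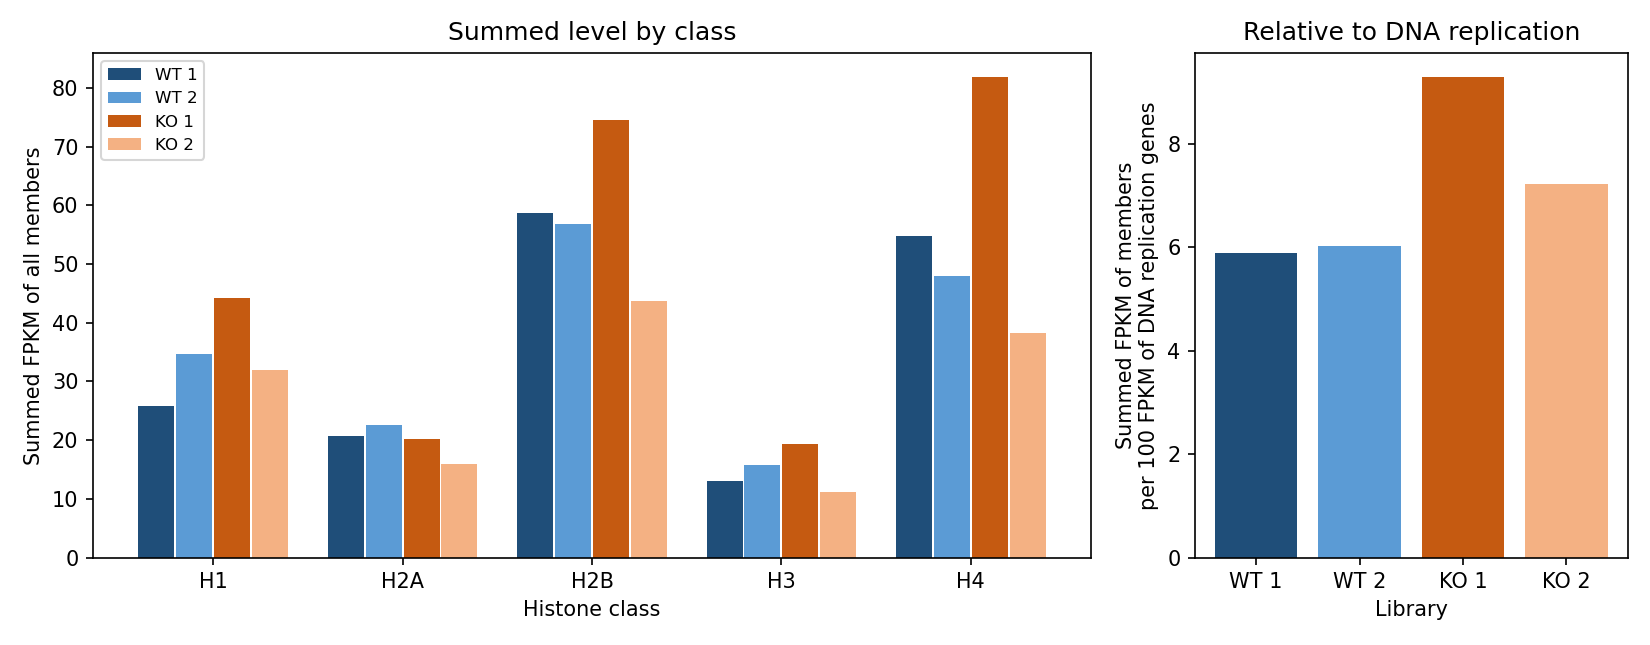
Left, summed FPKM of all members of each histone class in WT 1, WT 2, KO 1 and KO 2. Right, summed FPKM of all 67 members per 100 FPKM of 52 DNA replication genes. KO 1 has the tallest bar in H1, H2B, H3 and H4 but not in H2A, and on the right both KO bars, 9.30 and 7.23, stand above the WT bars, 5.89 and 6.03.

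Partners in head-to-head pairs did not share a level. Of 10 pairs with both means above 0, the mean levels differed more than 3-fold in 7, with the H2B gene higher in 5 of these. Hist1h2ae had 2.61 and 1.90 FPKM in WT with 2.69 and 2.16 in KO, while Hist1h2bg across the 175 bases shown above stood at 18.64, 16.85, 11.13 and 12.20. The H2B partner was thus higher in every library, and its lower values in KO had no counterpart in Hist1h2ae (log2 change 0.08 ± 0.20 SE). Hist1h2bc had a mean of 11.96 FPKM and its partner Hist1h2ac 0.955, and Hist2h2be had 6.09 and its partner Hist2h2ac 0.85. In the reverse direction, Hist1h2ao had 3.85 FPKM and Hist1h2bq 0.07. These 2 genes share 93.5% and 100% of their 50-base windows with other members, so the level of each is uncertain.

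Shared sequence limits what a single-gene value means. In 30 of 67 members, over 50% of the 50-base windows of the transcript also occur in another member. The median share was 73.0% in H2A, 57.2% in H3, 42.1% in H2B, 39.5% in H4 and 1.10% in H1. Hist1h2ao and Hist1h2ap share 93.5% and 93.1% of their windows with other members including each other, yet the first had a mean of 3.85 FPKM and the second was listed at 0. Hist2h2aa1 and Hist2h2aa2, at 89.2% and 100%, were also listed at 0 in every library. Levels of such genes are uncertain, whereas Hist3h2ba, Hist2h2be, Hist1h1a and Hist1h1b share no window with another member.

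Genes for DNA replication offer a comparison, since histone and DNA synthesis run together in S phase. None of the 52 passed the test (0 lower and 0 higher), but all 52 had a negative log2 change (61.7% of all genes did), with a median of -0.35, -0.17 in KO 1 and -0.54 in KO 2. All 52 were also negative under quantile normalization and median centring, and 48 were without KO 2. They summed to 2938 and 2947 FPKM in WT, 2581 in KO 1 and 1948 in KO 2. Both KO libraries lay below both WT libraries in 42 of 52, where 31.7% of all genes did. At an unadjusted p under 0.05, 11 were lower, against 6.02% of all genes, among them Cdc6, which loads the replicative helicase, at 24.85 and 23.67 FPKM in WT and 18.63 and 15.71 in KO (adjusted p = 0.370, limma). Dbf4, the activator of the Cdc7 kinase, stood at 14.24 and 15.51 FPKM in WT and 10.76 and 10.17 in KO. Rrm1, a subunit of ribonucleotide reductase, stood at 52.68 and 51.97 FPKM in WT and 39.77 and 35.52 in KO.

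Histone level relative to these genes was higher in both KO libraries. Per 100 FPKM of the DNA replication genes, the members summed to 5.89 and 6.03 FPKM in WT, 9.30 in KO 1 and 7.23 in KO 2, a log2 ratio of 0.46. The groups did not overlap for the whole set, for each of the 5 classes taken alone, or with the 6 most abundant members left out (2.26 and 2.25 in WT, 3.08 and 2.46 in KO). All these ratios have the same denominator, which was lower in both KO libraries, so they are not independent. Its genes had a median log2 change of -0.35, against -0.09 over all genes tested, and any set that fell less would rise on this scale. The sums of the variant genes, 1360 and 1381 FPKM in WT against 1322 and 1015 in KO, also stand higher over this denominator in both KO libraries. So do those of the lists below for making histone mRNA, for its translation and decay, and for histone chaperones. The order of the groups is therefore not particular to the replication-dependent histone genes. The size of the rise was not compared between lists, and all genes were not put on this scale. By class the log2 ratio was 0.72 for H1, 0.52 for H4, 0.42 for H3, 0.37 for H2B and 0.12 for H2A. In KO 2 the ratio came with a lower summed histone level than in WT and a still lower replication level. The exact two-sided permutation p of this ratio over libraries was 0.33, the smallest that 2 against 2 can give, so it does not pass a threshold of 0.05.

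Markers of several other cell types moved with the labels beside these ratios. Of 16 neutrophil markers, 15 lay above both WT libraries in both KO libraries, against 19.7% of all genes, with a median log2 change of 1.02. Of 13 erythroid markers tested, which come from a lineage that also divides rapidly, 10 lay below both WT libraries, against 31.7% of all genes, and they summed to 1615 and 995 FPKM in WT, 506 in KO 1 and 828 in KO 2, with none at 0. Plasma cell markers summed to 594 and 517 FPKM in WT and 188 and 119 in KO, and 2 of 8 tested were called lower, where 0.203% of all genes were. Monocyte and macrophage markers had no common direction between the groups, with 6 of 11 tested negative and a median log2 change of -0.06. Their median difference from the WT mean was -0.57 in KO 1 and 0.47 in KO 2, on opposite sides. These markers summed to 2412 and 2335 FPKM in WT and 3110 and 5806 in KO, mostly from Lyz2. Without it the sum was 294 and 182 in WT and 160 and 273 in KO. T and NK cell markers had 4 of 11 tested negative and a sum of 85.95 and 81.7 FPKM in WT and 90.3 and 145 in KO, of which Nkg7 made most of the difference, since the sum without it was 59.4 and 59.2 in WT and 62.5 and 66.3 in KO. The part of these cells in the histone and replication levels was not tested. In bulk RNA, fewer cells of a type and less RNA per cell cannot be told apart.

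Factors that make histone mRNA were examined as a list of 43 genes, covering transcription and 3′ end processing, of which 42 were found. Of 41 tested, 0 were called lower and 0 higher, 3 were lower at an unadjusted p under 0.05 (6.02% of all genes tested were), and 25 lay below both WT libraries in both KO libraries (31.7% of all genes). The median log2 change was -0.20, with -0.07 in KO 1 and -0.36 in KO 2, and 37 of 41 were negative, as were 61.7% of all genes tested (35 under quantile normalization or median centring). Slbp, the stem-loop binding protein, stood at 46.70 and 43.57 FPKM in WT and 38.86 and 29.21 in KO (log2 change -0.41 ± 0.18 SE, adjusted p = 0.439, limma). Npat, the coactivator of histone genes, stood at 8.56 and 9.47 FPKM in WT and 7.60 and 6.32 in KO. Casp8ap2, also known as FLASH, a 3′ processing factor, stood at 14.26 and 15.82 FPKM in WT and 12.34 and 11.50 in KO. For each of these 3 genes both KO libraries lay below both WT libraries.

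The U7 particle, which cuts histone pre-mRNA, has a ring of Sm and Lsm proteins, of which Lsm10 and Lsm11 are specific to it and did not show that order. Lsm10 stood at 11.27 and 12.27 FPKM in WT and 18.08 and 12.69 in KO, and was the 1 gene of the list above both WT libraries in both KO libraries (adjusted p = 0.4998, limma). Lsm11 stood at 3.21 and 3.11 FPKM in WT and 3.32 and 2.86 in KO, and its log2 change of -0.03 turns positive under quantile normalization (0.05) and median centring (0.04). Snrpd3, Snrpe and Snrpg, whose Sm proteins the ring shares with the splicing particles, did lie below both WT libraries in both KO libraries, Snrpd3 for example with 40.21 and 39.43 FPKM in WT and 33.66 and 29.37 in KO, while Snrpb and Snrpf overlapped. These Sm genes were named after their values were seen. E2f1, a transcription factor of the G1 to S transition, stood at 24.60 and 26.19 FPKM in WT and 27.20 and 19.62 in KO. Ccne1 and Ccne2, which encode E-type cyclins whose kinase acts on Npat, had KO values below both WT values, Ccne1 with 31.36 and 25.49 FPKM in WT and 21.20 and 19.40 in KO, and Ccne2 with 25.13 and 22.33 FPKM in WT and 19.02 and 16.69 in KO. Ncbp2, a subunit of the cap-binding complex, stood at 23.56 and 24.37 FPKM in WT and 19.56 and 17.24 in KO. Ccne1 and Ncbp2 had adjusted p of 0.380 and 0.395 (limma).

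Genes for translation and decay of histone mRNA numbered 22 tested, with 0 called lower and 0 higher, and 0 at an unadjusted p under 0.05. The median log2 change was -0.23 and 13 lay below both WT libraries in both KO libraries, against 31.7% of all genes. Exosc9, of the RNA exosome, stood at 8.64 and 9.40 FPKM in WT and 7.33 and 6.16 in KO. Lsm6, of the ring that binds RNA 3′ ends for decapping, stood at 18.97 and 18.43 FPKM in WT and 15.84 and 14.05 in KO. Ddx19a, an RNA helicase, stood at 35.27 and 36.56 FPKM in WT and 31.15 and 21.98 in KO, and KO 2 was the farthest from WT for each of these 3.

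Histone chaperones had a negative log2 change in 27 of 27 genes tested, where 61.7% of all genes did, with 0 called lower and 0 higher, and in 25 of 27 under quantile normalization or median centring and 19 of 27 without KO 2. The median was -0.28, 4 were lower at an unadjusted p under 0.05, against 6.02% of all genes, and 17 lay below both WT libraries in both KO libraries, against 31.7%. Nasp, which holds the soluble pool of H3 and H4, stood at 29.09 and 30.43 FPKM in WT and 21.29 and 17.88 in KO (log2 change -0.58 ± 0.15 SE, adjusted p = 0.345, limma). Supt16, of the FACT complex, stood at 55.02 and 56.98 FPKM in WT and 43.96 and 35.88 in KO. Hat1, which acetylates new H4, stood at 36.25 and 35.02 FPKM in WT and 28.15 and 25.62 in KO. Nap1l1, an H2A and H2B chaperone, stood at 52.12 and 54.48 FPKM in WT and 42.68 and 33.06 in KO. In these 4 genes both KO libraries were below WT. Asf1b, which passes H3 and H4 to the CAF-1 complex, stood at 65.85 and 66.83 FPKM in WT and 62.51 and 49.41 in KO. Of CAF-1 itself, Chaf1a stood at 17.60 and 19.11 FPKM in WT and 18.79 and 14.71 in KO, and Chaf1b at 16.06 and 15.17 against 15.50 and 11.99.

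Replication-independent variants are made through the cell cycle, mostly from polyadenylated mRNA. Of 10 tested, 0 were called lower and 0 higher, and at an unadjusted p under 0.05 there were 1 lower and 1 higher, against 6.02% and 6.45% of all genes. The log2 change was negative in 8 of 10, against 61.7% of all genes, and in 5 under median centring. H1f0, the linker histone H1.0 that accumulates in cells that stop dividing, stood at 21.89 and 22.85 FPKM in WT and 38.80 and 33.14 in KO, and was the 1 variant gene above both WT libraries in both KO libraries (log2 change 0.66 ± 0.15 SE, adjusted p = 0.296, limma). Its KO values thus lay near each other, unlike those of Hist1h4i or Hist3h2ba. H2afx, the variant phosphorylated at DNA breaks, was the most abundant, at 414.72 and 419.04 FPKM in WT and 371.57 and 251.50 in KO. Cenpa, the centromeric H3, stood at 45.65 and 47.17 FPKM in WT and 37.91 and 30.18 in KO, and H2afv, of the H2A.Z kind, at 137.61 and 126.56 against 114.70 and 76.25.

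The remaining variants overlapped more between groups. H3f3a and H3f3b, which both encode H3.3, had 187.63 and 179.17 FPKM in WT with 166.36 and 148.18 in KO, and 297.23 and 348.02 FPKM in WT with 327.32 and 257.85 in KO. For H3f3a both KO values were the lower ones, and for H3f3b the groups overlapped. H2afz stood at 103.37 and 91.37 FPKM in WT and 100.95 and 85.34 in KO, and its log2 change of -0.07 turns to 0.0028 under median centring. H2afj stood at 56.85 and 48.94 FPKM in WT and 56.51 and 52.76 in KO. Last, H1fx stood at 4.47 and 3.55 FPKM in WT and 5.24 and 2.77 in KO, the split of KO libraries also seen in Hist1h4i, and its log2 change of -0.04 turns to 0.03 under quantile normalization or median centring.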

How the data were processed

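The authors deposited FPKM values per gene and library, per the file headers, for 55573 Ensembl identifiers, of which 55480 were matched to a symbol. Per the submitters' processing notes the build was mm9. No source used here gives the aligner, the counting program, strandedness or the treatment of multiply mapped fragments. FPKM times the union exon length of GENCODE M21 (GRCm38) fell on whole fragments within a tolerance of 0.15 in 99.4% to 99.6% of values checked, which gave the estimated fragments. Coordinates are 1-based GRCm38 from GENCODE M21, and promoter sequences are from RefSeq.

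The test was limma 3.58.1 (R 4.3.3) with a mean-variance trend on log2(FPKM + 1), which understates changes of low genes. It had no covariate and the filter and threshold given in the text. Data were also simulated with an assumed spread, the same in both groups. The real KO libraries differed more (SD of the log2 difference 0.487) than the WT libraries did (0.322), so the rates that follow may not hold for them. In the simulated data the test called 7 of 49 short, low genes changed 2-fold and 29 of 50 others. For 4-fold changes it called 30 of 48 and 47 of 50. It also made 25 false calls among 13105 genes tested. A lack of calls among low members is therefore weak evidence of no change. Errors of log2 changes are standard errors of that model. The members and lists were chosen with earlier results of these data known. Genes were named by a rule: the 3 most abundant members of each class, all H1, Hist3 and Hist4 members, the 6 members of smallest p, 16 set factors and variants, and in each list the 3 genes of smallest p among those not already named. Members named outside it, such as Hist2h2be and the partners in pairs, were chosen after values were seen. Alternatives were other filters, pseudocount, normalizations, voom, a replicate block and leaving out each library, where a lone library is assumed to vary like the other group. With a library left out, the filter was applied anew to those kept. No protein sequence is shown.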

Additional observations from a re-analysis of the deposited data

How the results depend on the processing

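No histone member was called under any alternative run, namely other filters, a pseudocount of 0.1, quantile normalization, median centring, voom, a replicate block, a crossed block, or leaving out each library. The smallest adjusted p among members ranged from 0.0568 without KO 1 to 0.980 without WT 1. Over all genes, 27 were called lower, against 0 without a filter, 15 with a pseudocount of 0.1, 9 with voom and 61 with the replicate block. With 1 library left out the count ranged from 0 without KO 2 to 385 without KO 1, and was 14 without WT 1. The count of genes called higher was 0, against 1 with a filter of 5 FPKM, 7 with the replicate block, and 0 to 563 with 1 library left out, the highest without KO 1. The replicate numbers share only a number, since deviations of WT 1 and KO 1 correlated at -0.149, so the crossed pairing was also fitted, chosen after seeing the data, and called 167 lower and 46 higher. The cause of these changes was not tested. The median log2 change of members ranged from -0.21 without KO 1 to 0.28 without KO 2 and was -0.0021 without WT 1. The log2 ratio of their summed FPKM ranged from -0.32 without KO 1 to 0.45 without KO 2, and was 0.03 with estimated fragments. Log2 changes that turned sign with 1 library left out had these ranges: Hist1h1a -0.60 to 0.23, Hist1h1b -0.21 to 0.42, Hist1h2ae -0.080 to 0.24, Hist1h2ao -0.16 to 0.059, Hist1h2bc -0.036 to 0.63, Hist1h3c -0.45 to 0.61, Hist1h3i -0.37 to 0.62, Hist1h4i -0.36 to 0.61, Hist1h4n -0.53 to 0.39, Hist3h2a -0.78 to 0.0625, Hist3h2ba -0.63 to 0.98, Chaf1a -0.30 to 0.033, E2f1 -0.36 to 0.10, H1fx -0.40 to 0.32, H2afj -0.057 to 0.16, H2afz -0.19 to 0.054, H3f3b -0.32 to 0.025 and Lsm11 -0.11 to 0.0546. Scaling turned the sign of Hist1h2ao (0.028 by quantile normalization, 0.017 by median centring), Lsm11 (0.048 and 0.042), H1fx (0.032 and 0.028) and H2afz (0.0028 by median centring). Without KO 1, Ddx19a, H2afv, Nap1l1 and Nasp passed the threshold, with log2 changes of -0.68, -0.78, -0.67 and -0.70.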
